A study of Mus musculus with 15 samples.

Results

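Complement and coagulation factors are plasma proteins made mainly by hepatocytes, and 39 of their genes were followed in mouse liver after chemotherapy. The members were the rows of the expression table whose symbol stood in a list of 19 complement genes and 20 coagulation genes. All 39 were present among 21878 genes and all passed the filter on low values, which kept the 10552 genes that reached 1 FPKM in 5 or more of the 15 libraries. FPKM, fragments per kilobase of gene scaled to the depth of the library, is a level per length, so that levels of different genes can be set side by side.

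Complement is a cascade of proteases that marks and lyses microbes. Antibody complexes and sugars start it through C1 and the mannose-binding lectins, the alternative pathway amplifies it, and the terminal components form a pore in the target membrane. Coagulation is a cascade of proteases that ends with thrombin, which cuts fibrinogen into fibrin, while plasmin dissolves the clot and circulating inhibitors restrain both arms. Several of these proteins are known as acute-phase reactants, whose genes hepatocytes transcribe more strongly under interleukin-6 and interleukin-1.

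The livers came from male C57BL/6J mice aged 8 weeks and were taken 1 day after 1 intraperitoneal injection. Doxorubicin, an anthracycline that poisons topoisomerase II, was given at 10 mg/kg from a solution of 2 mg/mL in sterile water to 5 mice. Cisplatin, a platinum compound that crosslinks DNA, was given at 10 mg/kg from 1 mg/mL in 0.9% saline to 5 mice, and 5 mice received normal saline. A note in the series record says that the samples carry no information on doxorubicin, while the same record and the labels of these 5 samples name it, and the labels were followed. The labels name no genetic change or further agent in any group, and doxorubicin differed from the others in its vehicle as well. Each group had 5 libraries of poly(A)-selected RNA, numbered as in the labels except for 1 doxorubicin library whose number matches no label and which is called unnumbered.

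Reads assigned to genes numbered 37.6 to 50.7 M (megareads) in doxorubicin libraries, 25.3 to 31.0 M in cisplatin libraries and 27.6 to 34.7 M in saline libraries, so the doxorubicin libraries were deeper and the labels give no sequencing run. The hepatocyte markers named for this tissue were abundant, with summed levels of 49408 to 61386 FPKM after doxorubicin, 63801 to 69592 after cisplatin and 62364 to 71439 after saline, and 4 of these 10 markers fell after doxorubicin and 3 after cisplatin. That was 40% and 30% of them, where 17.2% and 5% of all tested genes fell. Saline 2 stood apart, with the lowest saline value in 23 of the 39 members, and 14 of 20 coagulation members lay below all other saline livers in it. Of all tested genes, 73.0% lay outside the range of the other saline livers in that library, against 23.9 to 42.4% in the others. Member counts are therefore also given without saline 2 alone, and without it and the unnumbered doxorubicin library. The labels describe mice allotted to groups and do not say further how the libraries of a group arose. The p-values therefore set each difference against the spread between these libraries. In bulk liver, fewer cells of a type and less RNA per cell cannot be told apart.

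In saline livers the members spanned from 18 ± 0.927 FPKM for Pros1 to 2541 ± 696 FPKM for Fgb (SD, n = 5). The coagulation members had a median level of 260 FPKM and the complement members one of 198 FPKM. The most abundant were the fibrinogen chains, Kng1, C3 and the antithrombin gene Serpinc1, with 1362 FPKM or more. Complement members summed to 1.62 ± 0.112% of all FPKM after doxorubicin, 1.17 ± 0.0619% after cisplatin and 0.948 ± 0.149% after saline (SD, n = 5 each). Coagulation members made up 4.09 ± 0.518%, 2.36 ± 0.17% and 2.38 ± 0.47% in the same groups. Of these coagulation shares, the 3 fibrinogen chains alone made up 2.69 ± 0.421% after doxorubicin, 1.04 ± 0.137% after cisplatin and 1.12 ± 0.351% after saline.

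**Figure D1:**
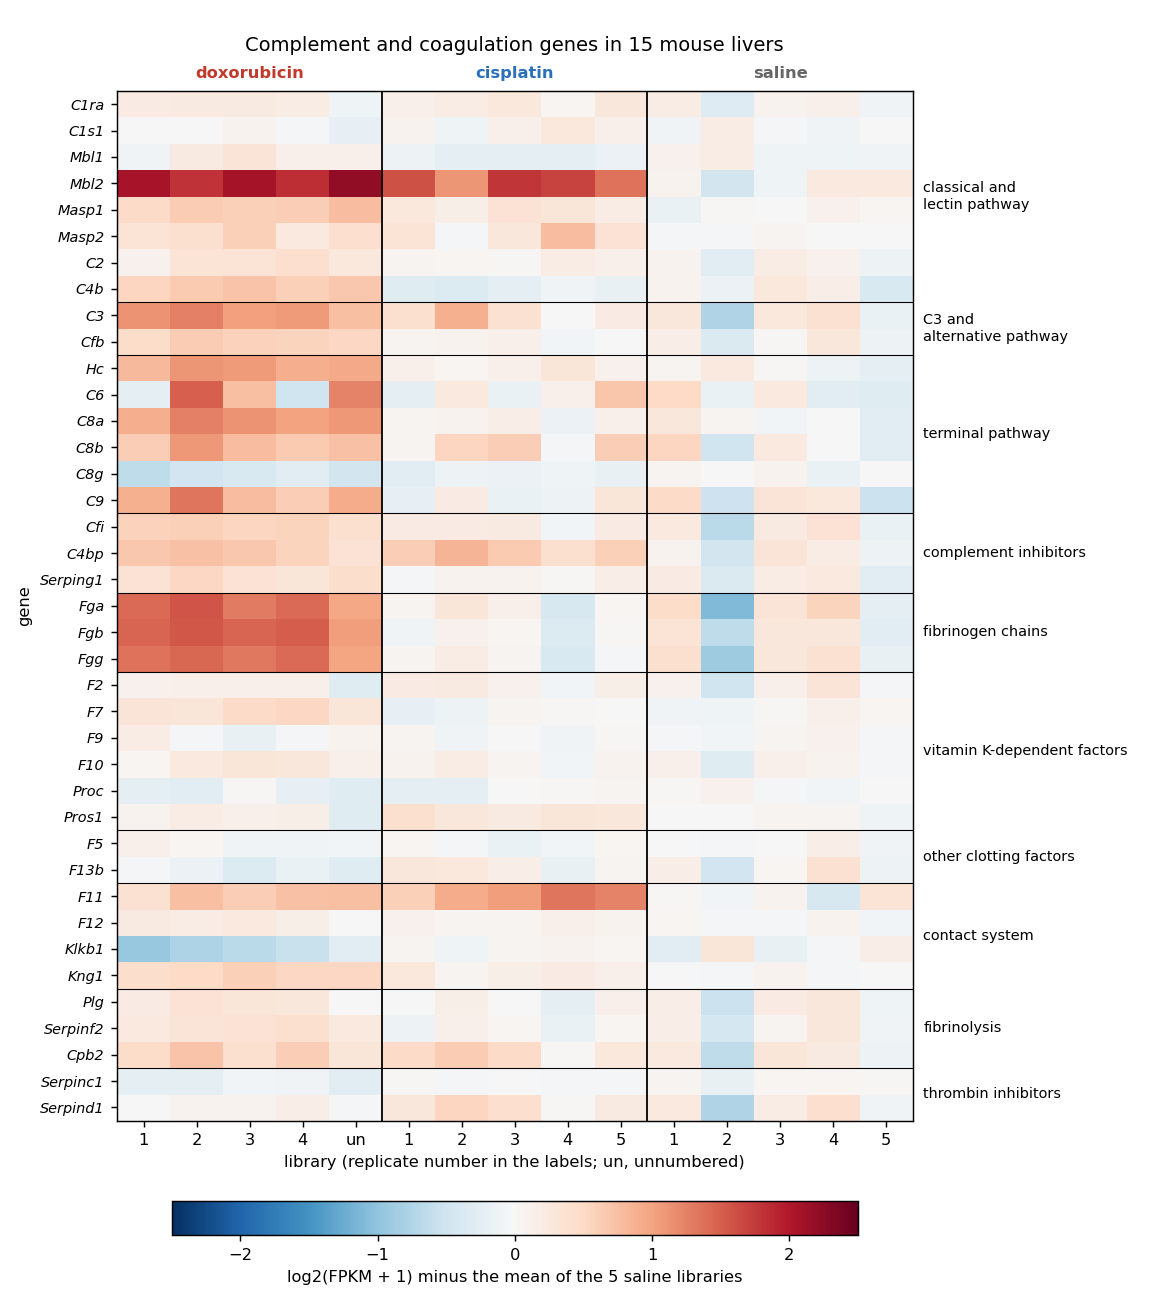
Rows are the 39 genes ordered by role and columns the 15 libraries, with the color giving log2(FPKM + 1) minus the mean of the 5 saline libraries. Most complement genes, other than C8g, C6, C1ra, C1s1 and Mbl1, and the fibrinogen chains are red in all doxorubicin libraries, Mbl2 is red in all 10 drug-treated libraries, and saline 2 is blue in many rows.

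Doxorubicin compared with saline asked how an anthracycline changes the liver transcriptome after 1 day. Complement genes were mostly higher and coagulation genes were divided. Of 19 complement members, 14 rose and 1 fell, and of 20 coagulation members, 8 rose and 1 fell (limma on log2(FPKM + 1), adjusted p under 0.05). Among all tested genes 14.4% rose and 17.2% fell, or 31.6% in both directions, where 78.9% of complement members and 45% of coagulation members were called. The balance over all genes turned with the scaling, with 1520 higher and 1815 lower as deposited and 1808 higher and 1655 lower with median-ratio scaling. The median log2 difference was 0.55 for complement members, 0.18 for coagulation members and -0.04 for all tested genes. The difference between these medians is a description and was not tested. Without saline 2 alone, 14 complement members rose and 1 fell, and 7 coagulation members rose and 3 fell. Without saline 2 and the unnumbered doxorubicin library together, 13 complement members rose and 1 fell, and 8 coagulation members rose and 2 fell.

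The fibrinogen chains held the largest rises among coagulation members. Fga, Fgb and Fgg encode the Aα, Bβ and γ chains of fibrinogen, the precursor of fibrin, and lie together on chromosome 3 (GRCm38), with gaps of 11096 bases between Fgg and Fga and 8618 bases between Fga and Fgb. Fgb measured 6755, 7205, 6772 and 6970 FPKM in doxorubicin 1 to 4 and 5062 FPKM in the unnumbered doxorubicin liver, against 3127, 1583, 2995, 2985 and 2018 FPKM in saline livers. Every doxorubicin value lay above every saline value, and the unnumbered library was the lowest of its group. The mean was 2.58 times that of saline, with a log2 difference of 1.40 ± 0.17 (SE, adjusted p = 1.66e-05).

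Fgg measured 5172, 5454, 5067 and 5420 FPKM in doxorubicin 1 to 4 and 4004 FPKM in the unnumbered doxorubicin liver, against 2657, 1092, 2474, 2630 and 1785 FPKM in saline livers. Fga measured 3581, 4027, 3305, 3615 and 2623 FPKM in the doxorubicin livers, the unnumbered one last, against 1863, 629, 1680, 1977 and 1145 FPKM in saline livers. For both chains the groups were fully separated and saline 2 was the lowest liver. Fgg rose by 1.30 ± 0.20 on the log2 scale (adjusted p = 0.000141) and Fga rose by 1.33 ± 0.25 (adjusted p = 0.000689).

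The chains kept similar proportions. The ratio of Fgb to Fga was 1.92 ± 0.0934 after doxorubicin, 1.73 ± 0.128 after cisplatin and 1.85 ± 0.385 after saline (SD, n = 5 each). The ratio of Fgg to Fga was 1.47 ± 0.0765, 1.45 ± 0.0634 and 1.51 ± 0.155 in the same groups. In saline livers the highest value of each ratio, 2.51 for Fgb and 1.74 for Fgg, came from saline 2. The cisplatin livers had 2318, 2654, 2536, 1947 and 2508 FPKM of Fgb and 1420, 1669, 1477, 1021 and 1399 FPKM of Fga. Fgg had 2113, 2291, 2124, 1557 and 1967 FPKM in them, and all 3 chains overlapped their saline values.

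**Figure D2:**
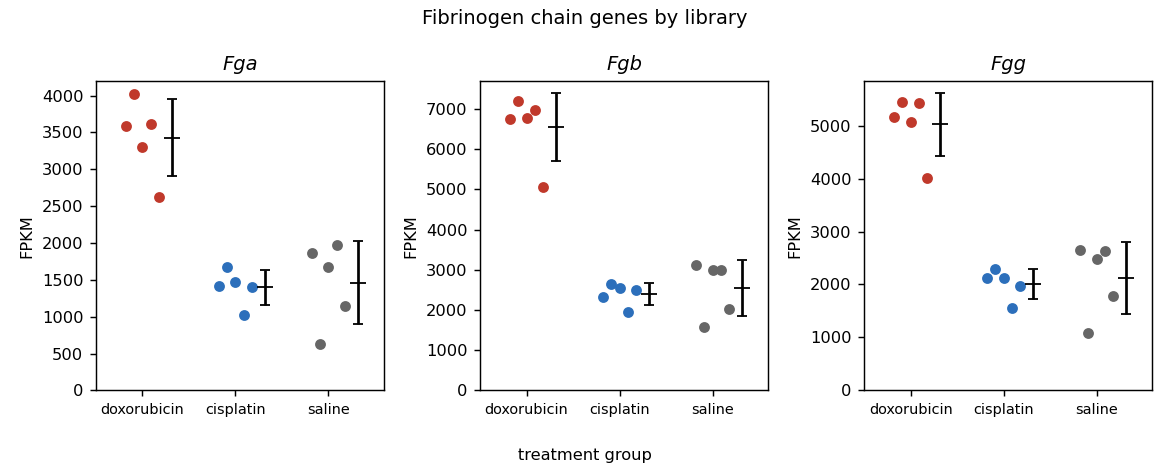
Each point is the level of a fibrinogen chain gene in 1 library (FPKM), with the group mean and SD (n = 5) as a bar beside the points. All doxorubicin points lie above all cisplatin and saline points, with Fgb at 5062 FPKM or more after doxorubicin and at 3127 FPKM or less in the other livers.

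Because the 3 chains moved together, their promoter windows are shown, with that of Mbl2, the member with the largest change after each drug. Each window runs from 250 bases before to 50 bases after an annotated start site, 300 bases read 5′ to 3′ on the strand of the gene (RefSeq, GRCm38.p6). For the fibrinogen chains this site is the outer end of the annotated gene. For Mbl2 and some other members it lies inside the annotated gene. Capitals mark every match to 6 short motifs on either strand: the interleukin-6 response element core CTGGGA, a STAT element TTCNNNGAA, a C/EBP element TTGCNNAA, the HNF1 core GTTAAT, the HNF4 core CAAAGT and the TATA box TATAAA, where N is any base. STAT3 and C/EBP factors carry interleukin signals to acute-phase genes, and HNF1 and HNF4 sustain liver-specific transcription. The windows lie at chr3:83007474-83007773 (plus strand) for Fgg, chr3:83025903-83026202 (plus) for Fga, chr3:83049814-83050113 (minus) for Fgb and chr19:30232678-30232977 (plus) for Mbl2.
Fgg: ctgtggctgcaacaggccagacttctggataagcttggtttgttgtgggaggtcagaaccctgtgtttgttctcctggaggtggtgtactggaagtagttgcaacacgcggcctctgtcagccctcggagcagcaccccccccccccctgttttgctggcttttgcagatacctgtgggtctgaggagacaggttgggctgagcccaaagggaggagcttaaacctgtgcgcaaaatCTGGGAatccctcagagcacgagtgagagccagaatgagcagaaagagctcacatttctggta
Fga: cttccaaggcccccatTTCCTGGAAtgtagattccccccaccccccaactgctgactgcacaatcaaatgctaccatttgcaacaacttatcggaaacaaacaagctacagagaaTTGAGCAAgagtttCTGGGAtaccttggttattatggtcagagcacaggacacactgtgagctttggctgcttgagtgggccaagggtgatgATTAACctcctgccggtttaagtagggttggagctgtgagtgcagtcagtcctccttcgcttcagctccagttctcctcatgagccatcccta
Fgb: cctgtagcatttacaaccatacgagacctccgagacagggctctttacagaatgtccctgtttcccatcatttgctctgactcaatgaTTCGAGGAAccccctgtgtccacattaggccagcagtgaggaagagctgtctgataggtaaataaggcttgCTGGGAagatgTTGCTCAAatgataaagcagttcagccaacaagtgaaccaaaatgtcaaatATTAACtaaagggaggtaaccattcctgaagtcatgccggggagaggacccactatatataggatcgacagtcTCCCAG
Mbl2: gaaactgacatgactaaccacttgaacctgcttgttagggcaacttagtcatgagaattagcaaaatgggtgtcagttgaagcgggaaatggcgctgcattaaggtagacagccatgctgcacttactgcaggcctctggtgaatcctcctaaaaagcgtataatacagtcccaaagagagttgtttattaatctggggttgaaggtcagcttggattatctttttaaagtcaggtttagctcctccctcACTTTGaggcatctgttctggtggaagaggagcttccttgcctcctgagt

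The Fga and Fgb windows held the same 4 kinds of match. In Fga these were a STAT element at base -234, a C/EBP element at -135, CTGGGA at -121 and the HNF1 core at -43, counted from the annotated start as base 1. In Fgb they were a STAT element at -162, CTGGGA at -91, a C/EBP element at -80 and the HNF1 core at -29, with a further CTGGGA on the opposite strand at base 45. The Fgg window held CTGGGA at -13 and the Mbl2 window held the HNF4 core at base 1, and no matches overlapped in these windows. Among 32851 promoter windows of all genes, 31.8% held CTGGGA, 8.3% the STAT element, 10.8% the C/EBP element and 7.1% the HNF1 core. Among the 32 windows used for 30 members, 56.2%, 21.9%, 34.4% and 28.1% held these motifs, in the same order. Member windows on chromosome 18, where Proc lies, were left out, and the windows of all genes were not filtered in this way. Windows of C2, C4b, Cfb, Cfi, Masp1, Serping1, Kng1 and Plg were also missing, and all of these but Plg rose after doxorubicin. The HNF4 core was in 14.4% of all windows and 15.6% of member windows, and the TATA box was in 13.6% and 9.38%. All members passed the filter, so the 10548 windows of tested genes are a closer background. They held CTGGGA in 32.8%, the STAT element in 6.93%, the C/EBP element in 8.85% and the HNF1 core in 4.79%. The HNF4 core was in 12.5% of them and the TATA box in 7.43%. The TATA share of members thus lay below that of all windows and above that of tested genes. All of these are matches of letters and not shown sites of binding.

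In the classical and lectin pathways, 5 of 8 members rose after doxorubicin and 0 fell. Mbl2 encodes mannose-binding lectin C, which binds sugars of microbes. It measured 1633, 1374, 1652 and 1401 FPKM in doxorubicin 1 to 4 and 1806 FPKM in the unnumbered liver, against 414, 284, 360, 460 and 460 FPKM in saline livers. The lowest doxorubicin liver exceeded the highest saline liver by a wide margin, with a mean 3.98 times that of saline and a log2 difference of 2.00 ± 0.15 (adjusted p = 1.65e-07).

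Its paralog Mbl1, which encodes mannose-binding lectin A, had means of 188 ± 19.3 FPKM after doxorubicin and 170 ± 16.7 FPKM after saline, a log2 difference of 0.14 that did not pass the test (adjusted p = 0.229). The ratio of Mbl2 to Mbl1 was 8.46 ± 1.44 after doxorubicin, 7.63 ± 1.51 after cisplatin and 2.37 ± 0.587 after saline (SD, n = 5 each).

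The proteases that the lectins carry moved less. Masp1 and Masp2 encode the lectin-associated serine proteases, and rose by 0.62 ± 0.08 (adjusted p = 1.84e-05) and 0.41 ± 0.12 (adjusted p = 0.0131) on the log2 scale. Masp1 measured 29.6, 32.9, 32.2, 32.6 and 36.4 FPKM in doxorubicin livers, the unnumbered one last, against 18.4, 21.3, 20.7, 22.4 and 21.7 FPKM in saline livers, with no overlap. C4b, the gene of complement C4, rose to 446 ± 21.1 FPKM, against 290 ± 50 FPKM in saline livers (adjusted p = 0.000296). Its partner C2 rose by 0.30 (adjusted p = 0.0217) but missed the threshold when saline 5 (adjusted p = 0.059) or doxorubicin 4 (0.0576) was left out. C1ra and C1s1, the proteases of the C1 complex, differed by 0.15 and -0.02 and did not pass the test (adjusted p = 0.298 and 0.867).

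C3, the central component, and Cfb, the protease of the alternative pathway, both rose. C3 averaged 2817 ± 351 FPKM after doxorubicin and 1411 ± 402 FPKM after saline (SD, n = 5 each), with a log2 difference of 1.04 ± 0.20 (adjusted p = 0.000802). Its doxorubicin livers ranged from 2277 to 3237 FPKM and its saline livers from 800 to 1772 FPKM. Cfb averaged 555 ± 26.4 FPKM after doxorubicin and 382 ± 65.0 FPKM after saline, and rose by 0.55 (adjusted p = 0.000733).

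Of the 6 terminal pathway genes, 4 rose, 1 fell and 1 did not pass the test. C8a, the α subunit of C8, measured 369, 469, 430 and 396 FPKM in doxorubicin 1 to 4 and 416 FPKM in the unnumbered liver, against 238, 206, 187, 195 and 161 FPKM in saline livers. Hc, the mouse gene of C5, measured 269, 331, 320, 287 and 297 FPKM in doxorubicin livers, the unnumbered one last, against 161, 181, 157, 141 and 132 FPKM in saline livers. For both genes every doxorubicin liver lay above every saline liver. C8a rose by 1.08 ± 0.10 (adjusted p = 1.37e-06) and Hc by 0.96 ± 0.09 (adjusted p = 1.66e-06) on the log2 scale.

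C9, which polymerizes into the pore, rose by 0.91 ± 0.20 (adjusted p = 0.00235), and C8b, the β subunit of C8, rose by 0.77 ± 0.18 (adjusted p = 0.00394). C6, which joins C5b in the nascent complex, was the most variable member after doxorubicin, with a coefficient of variation of 55.7%. It measured 22.5, 76.7, 45.6, 18.6 and 63.8 FPKM in doxorubicin livers, the unnumbered one last, against 38.1, 23.5, 31.9, 21.7 and 21.4 FPKM in saline livers. Its values fell on both sides of the saline range, and its log2 difference of 0.55 ± 0.32 did not pass the test (adjusted p = 0.211, or 0.0498 without doxorubicin 4).

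C8g, which encodes the γ subunit of C8, a lipocalin, went the other way from C8a and C8b. It measured 294, 329, 351, 383 and 335 FPKM in doxorubicin livers, the unnumbered one last, against 480, 459, 485, 409 and 463 FPKM in saline livers. The groups did not overlap, and C8g fell by 0.44 on the log2 scale (SE 0.08, adjusted p = 0.000629). The ratio of C8g to C8a was 0.818 ± 0.0944 after doxorubicin, 2.01 ± 0.221 after cisplatin and 2.36 ± 0.359 after saline (SD, n = 5 each). C8a and C8b are neighbors on chromosome 4, 11130 bases apart, whereas C8g lies on chromosome 2.

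All 3 complement inhibitors rose. C4bp, which encodes a cofactor for the breakdown of C4b, rose by 0.60 ± 0.13 (adjusted p = 0.00231), Cfi, the protease that cuts C3b and C4b, by 0.53 ± 0.15 (adjusted p = 0.013), and Serping1, the C1 inhibitor, by 0.40 ± 0.11 (adjusted p = 0.013). Each was fully separated from saline, with 356 to 410 FPKM of Cfi after doxorubicin and 170 to 349 FPKM after saline. Groups did not overlap in 13 complement members that were higher and 1 that was lower, and in 7 and 1 coagulation members, where 10.5% and 11.5% of all tested genes were so.

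Among the 6 vitamin K-dependent genes, F7, which starts clotting with tissue factor, was the member that rose. It averaged 104 ± 7.81 FPKM after doxorubicin and 79.6 ± 5.31 FPKM after saline, a log2 difference of 0.39 ± 0.08 (adjusted p = 0.00182). Prothrombin (F2), factor IX (F9) and protein S (Pros1) differed by 0.03, 0.00 and 0.05 and did not pass the test, with 95% intervals of -0.25 to 0.32, -0.17 to 0.17 and -0.14 to 0.24. F10, adjacent to F7 on chromosome 8 with a gap of 1498 bases, differed by 0.20 (interval 0.00 to 0.40, adjusted p = 0.119). Protein C (Proc) differed by -0.20 (adjusted p = 0.0989, or 0.0415 without doxorubicin 3). The cofactor F5 and the factor XIII carrier subunit F13b differed by -0.01 and -0.20 and did not pass the test (adjusted p = 0.915 and 0.274, and 0.0384 for F13b without saline 2).

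The contact system, which starts clotting on charged surfaces and releases bradykinin, was divided. Kng1, the kininogen gene, measured 2176, 2263, 2413, 2270 and 2279 FPKM in doxorubicin livers, the unnumbered one last, against 1575, 1548, 1693, 1554 and 1614 FPKM in saline livers. It varied little within groups, did not overlap between them, and rose by 0.51 ± 0.07 (adjusted p = 4.43e-05). F11, the zymogen of factor XIa, measured 51.4, 67.4, 60.7, 65.7 and 67.2 FPKM in doxorubicin livers, the unnumbered one last, against 40.5, 37.4, 41.9, 29.6 and 50.5 FPKM in saline livers, and rose by 0.64 ± 0.15 (adjusted p = 0.00298). The lowest doxorubicin value of F11 was close to the highest saline value.

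Klkb1, the gene of plasma prekallikrein, lies 4632 bases from F11 on chromosome 8 and was lower. It measured 36.1, 40.8, 44.0 and 47.8 FPKM in doxorubicin 1 to 4 and 58.7 FPKM in the unnumbered liver, against 58.9, 87.4, 62.3, 69.1 and 79.0 FPKM in saline livers. The highest doxorubicin value stood just under the lowest saline value, and Klkb1 fell by 0.64 on the log2 scale (SE 0.13, adjusted p = 0.000994). The ratio of F11 to Klkb1 was 1.39 ± 0.181 after doxorubicin, 1.15 ± 0.207 after cisplatin and 0.571 ± 0.131 after saline (SD, n = 5 each). F12, the zymogen of factor XIIa, differed by 0.16 (adjusted p = 0.0917, or 0.029 without the unnumbered doxorubicin library).

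In fibrinolysis, Cpb2 and Serpinf2 passed the test and Plg, the plasminogen gene, did not (log2 difference 0.23, adjusted p = 0.223). Cpb2 encodes a carboxypeptidase that slows clot lysis and rose by 0.50 (adjusted p = 0.0267) but missed the threshold when saline 5 (adjusted p = 0.0622), doxorubicin 2 (0.0691) or doxorubicin 4 (0.0589) was left out. Serpinf2, the plasmin inhibitor α2-antiplasmin, rose by 0.32 (adjusted p = 0.0463), and this call ended in 12 of the 15 fits that left out 1 library, with adjusted p of 0.0504 to 0.0997. It held there only without saline 1, saline 4 or cisplatin 4. The thrombin inhibitor genes Serpinc1 and Serpind1, antithrombin and heparin cofactor II, differed by -0.17 and 0.06 and did not pass the test (adjusted p = 0.0919 and 0.829). Without saline 2, Serpinc1 passed at an adjusted p of 0.0225.

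**Figure D3:**
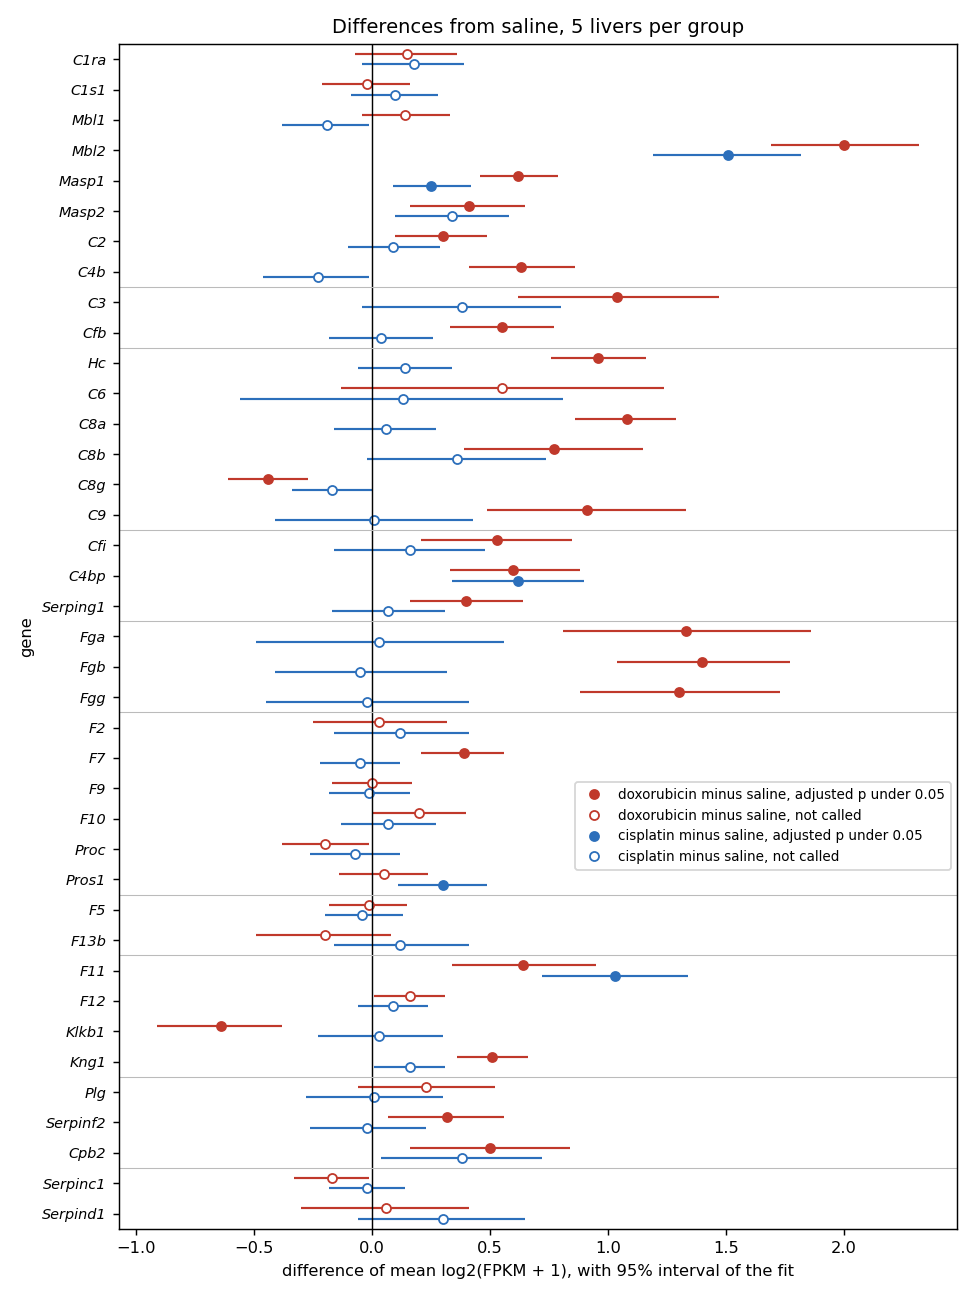
Differences of mean log2(FPKM + 1) from saline for the 39 genes, with the 95% interval of the fit; filled points passed the adjusted p of 0.05 and open points did not (n = 5 libraries per group). After doxorubicin 22 genes rose and 2 fell, and after cisplatin 5 rose and 0 fell.

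Cisplatin compared with saline asked the same of a platinum compound, with the same 5 saline livers as its control. Mbl2, F11 and C4bp were higher and most other members did not pass the test. Of 19 complement members, 3 rose and 0 fell, and of 20 coagulation members, 2 rose and 0 fell. Among all tested genes 6.08% rose and 5% fell, or 11.1% in both directions, where 15.8% of complement members and 10% of coagulation members were called, so both shares were near the background. The median log2 difference was 0.13 for complement members, 0.03 for coagulation members and -0.01 for all tested genes. Without saline 2 alone, 3 complement members and 1 coagulation member rose and 0 fell, and without it and the unnumbered doxorubicin library the counts were those of all livers. As TPM, the balance over all genes turned, with 593 higher and 616 lower, against 642 higher and 528 lower as deposited.

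Mbl2 measured 1175, 840, 1350, 1259 and 999 FPKM in cisplatin livers, against the saline values of 284 to 460 FPKM. All 5 lay above the saline range, the mean was 2.84 times that of saline, and Mbl2 rose by 1.51 ± 0.15 on the log2 scale (adjusted p = 9.3e-06). F11 measured 60.4, 75.4, 82.5, 101 and 94.6 FPKM in cisplatin livers, against 29.6 to 50.5 FPKM in saline livers. F11 did not overlap its saline range, with a mean 2.07 times that of saline and a log2 difference of 1.03 ± 0.15 (adjusted p = 0.000251). Its neighbor Klkb1 averaged 72.3 ± 3.93 FPKM after cisplatin and 71.3 ± 11.8 FPKM after saline, and did not pass the test (adjusted p = 0.909).

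C4bp measured 354, 417, 364, 303 and 348 FPKM in cisplatin livers, against 245, 167, 287, 262 and 211 FPKM in saline livers. Cisplatin 4 was the lowest of its group and still above the highest saline liver, and C4bp rose by 0.62 ± 0.13 (adjusted p = 0.0057).

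Masp1 and Pros1 passed the test by a narrow margin. Masp1 measured 25.4, 23.2, 27.2, 26.0 and 23.7 FPKM in cisplatin livers, all above its highest saline value of 22.4 FPKM, and rose by 0.25 ± 0.08 (adjusted p = 0.0455). This call ended in 10 of the 15 fits that left out 1 library (adjusted p of 0.0519 to 0.122) and held only without saline 2, saline 4, cisplatin 2, doxorubicin 1 or the unnumbered doxorubicin library. Pros1, the cofactor of activated protein C, measured 24.0, 22.2, 21.1, 22.3 and 22.1 FPKM in cisplatin livers, against 17.7, 17.8, 18.8, 18.9 and 16.6 FPKM in saline livers. Its groups did not overlap and it rose by 0.30 ± 0.09 (adjusted p = 0.0407), but the call ended in 11 of the 15 fits (adjusted p of 0.0505 to 0.101) and held only without doxorubicin 1, 2 or 4 or the unnumbered doxorubicin library.

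The fibrinogen chains did not pass the test after cisplatin, with log2 differences of 0.03 for Fga, -0.05 for Fgb and -0.02 for Fgg and 95% intervals of -0.49 to 0.56, -0.41 to 0.32 and -0.45 to 0.41. The terminal genes C8a and Hc differed by 0.06 and 0.14 (adjusted p = 0.781 and 0.373). Mbl1 averaged 148 ± 5.82 FPKM after cisplatin and 170 ± 16.7 FPKM after saline, with all cisplatin livers below all saline livers, and its log2 difference of -0.19 did not pass the test (adjusted p = 0.176). Masp2 passed without cisplatin 2 (adjusted p = 0.0162, against 0.0692 with all livers), and C4b passed as lower without saline 5 (adjusted p = 0.0439, against 0.186). Groups did not overlap in 5 members that were higher and 1 that was lower, against 5.33% and 4.39% of all tested genes, or 9.71% in both directions.

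**Figure D4:**
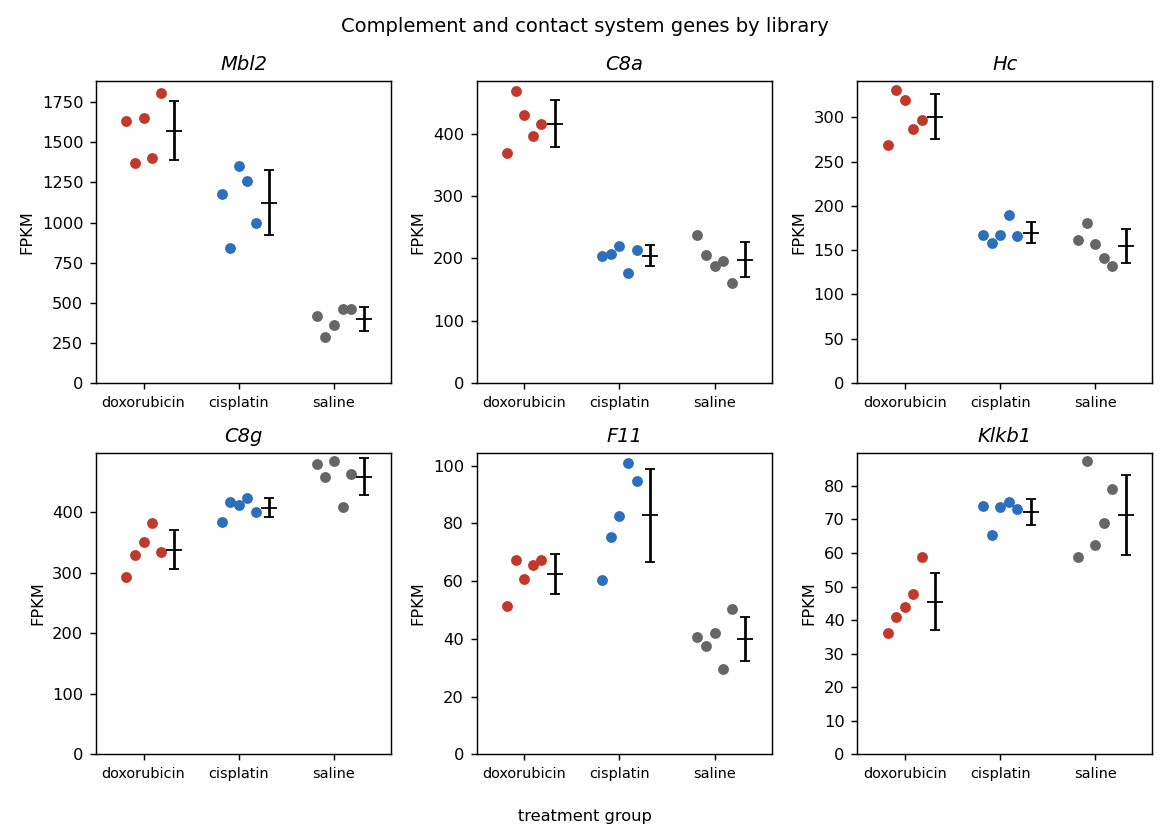
Level of 6 genes in each library (FPKM), with the group mean and SD (n = 5) as a bar beside the points. Mbl2 and F11 are above saline after both drugs, C8a and Hc after doxorubicin, and C8g and Klkb1 are below saline after doxorubicin.

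Doxorubicin and cisplatin livers were also compared directly, without the saline livers entering the difference. Of 19 complement members, 10 were higher and 1 lower after doxorubicin, and of 20 coagulation members 5 were higher and 1 lower, where 9% of all tested genes were higher and 11.4% lower, or 20.4% in both directions. The median log2 difference was 0.38 for complement members, 0.05 for coagulation members and -0.02 for all tested genes. Groups did not overlap in 16 members that were higher and 4 that were lower, against 6.9% and 9.45% of all tested genes. Without saline 2 alone, 11 complement members were higher and 1 lower, and 6 coagulation members were higher and 3 lower. Without saline 2 and the unnumbered doxorubicin library, 11 complement members were higher and 1 lower, and 7 coagulation members were higher and 1 lower. The fibrinogen chains exceeded their cisplatin levels by 1.45 ± 0.17 for Fgb (adjusted p = 2.64e-05), 1.32 ± 0.20 for Fgg (0.000241) and 1.30 ± 0.25 for Fga (0.00144).

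C8a was higher after doxorubicin than after cisplatin by 1.02 ± 0.10 (adjusted p = 5.74e-06), C4b by 0.87 ± 0.11 (3.82e-05) and Hc by 0.82 ± 0.09 (1.96e-05). Klkb1 was lower (log2 difference -0.67), with 45.5 ± 8.55 FPKM after doxorubicin and 72.3 ± 3.93 FPKM after cisplatin (adjusted p = 0.00115). Mbl2 was higher after doxorubicin by 0.50 ± 0.15 (adjusted p = 0.0257), but the call ended without cisplatin 2 or 5, doxorubicin 1 or 3, or the unnumbered doxorubicin library (adjusted p of 0.0502 to 0.069). C8g was lower (log2 difference -0.27, adjusted p = 0.0257), a call that ended without cisplatin 2 or 4 or doxorubicin 1 or 2 (0.0534 to 0.0663). C3 was higher by 0.67 (adjusted p = 0.0251) and missed the threshold when cisplatin 4, cisplatin 5 or doxorubicin 2 was left out (0.0611 to 0.0655). Serping1 was higher by 0.33 (adjusted p = 0.0478), and its call ended without any single cisplatin or doxorubicin library (0.0579 to 0.109).

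F11 had the opposite order, with 62.5 ± 6.74 FPKM after doxorubicin and 82.8 ± 16.1 FPKM after cisplatin. Its log2 difference of -0.39 ± 0.15 did not pass the test (95% interval -0.69 to -0.08, adjusted p = 0.072), and passed without cisplatin 1 (adjusted p = 0.0227). C4bp differed between the drugs by -0.02 (95% interval -0.30 to 0.26, adjusted p = 0.94). Without saline 2, which enters through the shared spread, Cfi (adjusted p = 0.00882), Serpinf2 (0.00949), F13b (0.0341) and Pros1 (0.0469) also passed, and Serpinf2 did so too without saline 4 (0.0381).

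Other genes of both cascades were taken from wider lists. Of 37 further complement genes, 25 passed the filter, of which 9 rose and 3 fell after doxorubicin and 2 rose and 0 fell after cisplatin. These calls were 48% and 8% of the 25, against 31.6% and 11.1% of all tested genes. The cisplatin share thus did not exceed that of all tested genes. Vtn, vitronectin, which binds the terminal complex, rose by 0.56 (adjusted p = 7.99e-05). After cisplatin the carboxypeptidase N gene Cpn1 rose by 0.36 (adjusted p = 0.00414) and C1rl, a C1r-like protease, by 0.42 (adjusted p = 0.0109).

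C1qa and C1qb, chains of C1q that macrophages make, rose by 0.88 (adjusted p = 0.0014) and 0.75 (0.00341) after doxorubicin. Markers of Kupffer cells, the resident liver macrophages, moved with them: 7 of 11 tested markers rose and 0 fell, of which 3 are the C1q chains themselves. The 12 listed Kupffer markers summed to 160 to 264 FPKM after doxorubicin and 79.8 to 139 FPKM after saline. After cisplatin 0 of the Kupffer, monocyte and neutrophil markers passed the test, while 5 sinusoidal endothelial markers and 4 erythroid markers fell. The last 2 counts were 41.7% and 80% of the tested markers of each type, where 5% of all tested genes fell. After doxorubicin, all 5 tested monocyte markers (Ms4a6c, Plac8, Ly6c2, Fn1 and S100a4) and all 3 tested neutrophil markers (S100a9, S100a8 and Csf3r) rose as well. Of the listed markers, 7 of 12 and 9 of 12 were below the filter, so these counts rest on few genes. The sums over all 12 listed markers were 216 to 306 FPKM for monocytes and 27.3 to 42.2 FPKM for neutrophils after doxorubicin. After saline they were 98.8 to 166 FPKM and 5.25 to 9.37 FPKM. How far single markers set these sums was not examined. Sinusoidal endothelial markers went the other way, with 1 of 12 tested higher and 5 lower, and 4 of 5 tested erythroid markers fell. After doxorubicin, calls made up 63.6% of tested Kupffer markers, 50% of endothelial markers and 80% of erythroid markers. The share over all tested genes was 31.6%. Of all these listed markers, 0 were at 0 in every doxorubicin liver or every saline liver. The part of these cells in the members' changes was not tested.

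Of 37 further coagulation and fibrinolysis genes, 21 passed the filter, of which 9 rose and 4 fell after doxorubicin and 7 rose and 0 fell after cisplatin. These calls were 61.9% and 33.3% of the 21, against 31.6% and 11.1% of all tested genes. Serpina10, the protein Z-dependent inhibitor of factor Xa, averaged 310 ± 19.8 FPKM after doxorubicin, 141 ± 14.1 FPKM after cisplatin and 95.9 ± 9.15 FPKM after saline. It rose by 1.69 (adjusted p = 6.35e-09) and 0.55 (adjusted p = 0.00106) after the 2 drugs. Fgl1, a fibrinogen-like secreted protein, averaged 1968 ± 172 FPKM after doxorubicin, 1100 ± 108 FPKM after cisplatin and 630 ± 167 FPKM after saline, and rose by 1.68 (adjusted p = 7.32e-07) and 0.84 (0.00177). Lman1 and Mcfd2, which form the cargo receptor of factors V and VIII, rose by 0.61 and 0.36 after doxorubicin (adjusted p = 0.000158 and 0.0037) and by 0.51 and 0.40 after cisplatin (0.00257 and 0.00591). Tmprss6, a liver serine protease that lowers hepcidin, fell by 0.45 after doxorubicin (adjusted p = 0.00129). Kng2, a paralog of Kng1, rose by 0.68 (adjusted p = 6.47e-06), and reads of this pair cannot be assigned with certainty; the same holds for C4b with C4a and for C1ra and C1s1 with C1rb and C1s2. Exons of C2, Cfb, Masp2, Plg, Serpinc1, Klkb1, Fgg, Hc, F5 and C1s1 overlap other annotated genes, and without a stated strand setting reads there cannot be told apart.

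Of 26 transcription and signaling factors known to act on such genes, 8 rose and 4 fell after doxorubicin and 2 rose and 3 fell after cisplatin. These calls were 46.2% and 19.2% of the 26, against 31.6% and 11.1% of all tested genes. Stat3, the transcription factor of interleukin-6 signaling, averaged 47.0 ± 3.98 FPKM after doxorubicin and 25.6 ± 3.47 FPKM after saline (log2 difference 0.86, adjusted p = 5.08e-06). Socs3, its feedback inhibitor, averaged 28.8 ± 2.14 FPKM after doxorubicin, 8.80 ± 3.36 FPKM after cisplatin and 7.73 ± 4.48 FPKM after saline, and rose by 1.89 after doxorubicin (adjusted p = 3.23e-05). Hnf4a, a regulator of hepatocyte identity that is also counted among the hepatocyte markers, fell after doxorubicin by 0.50 (adjusted p = 0.000352) and after cisplatin by 0.34 (adjusted p = 0.0163). Cebpa fell by 0.41 after doxorubicin (adjusted p = 0.00594). The interleukin-6 receptor Il6ra and the factors Cebpb and Cebpd differed by -0.55, -0.93 and -0.34 and did not pass the test (adjusted p = 0.0634, 0.159 and 0.21). Il6st, the signaling partner of that receptor, rose by 0.31 (adjusted p = 0.0105). Cebpb was very uneven after doxorubicin, at 28.5 ± 34.1 FPKM (range 9.36 to 89), against 19.5 to 62.8 FPKM in saline livers. Of the 26 factors, 9 had a positive and 17 a negative difference after doxorubicin. Negative differences were also the more common over all tested genes, with 4605 positive and 5947 negative. After cisplatin Dbp, a clock-controlled factor, rose by 2.44 (adjusted p = 0.00909), and the interleukin-1 receptor Il1r1 fell by 1.37 (adjusted p = 0.00231). Cebpd was lower after cisplatin as well (log2 difference -0.86, adjusted p = 0.0104). The labels give no hour of sampling.

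Of 24 acute-phase genes outside the members, 20 rose and 0 fell after doxorubicin, with a median log2 difference of 1.44, and 8 rose and 0 fell after cisplatin, with a median of 0.50. These calls were 83.3% and 33.3% of the 24, against 31.6% and 11.1% of all tested genes. Fgl1 is counted both here and among the further coagulation and fibrinolysis genes. Cisplatin 2 stood far apart in these genes, with a summed level of 39350 FPKM, against 17005 to 21171 FPKM in the other cisplatin livers, and with 940 FPKM of Lcn2, against 54.9 to 220 FPKM. All doxorubicin livers summed to 31679 to 37462 FPKM and all saline livers to 9726 to 17483 FPKM. Without cisplatin 2, which was left out after seeing these values, 6 acute-phase genes rose and 0 fell after cisplatin, with a median of 0.46, and 5 members rose and 0 fell. Apcs, the gene of serum amyloid P, averaged 380 ± 59.3 FPKM after doxorubicin, 190 ± 36.7 FPKM after cisplatin and 83.2 ± 12.8 FPKM after saline, and rose by 2.18 (adjusted p = 4.47e-08) and 1.17 (7.49e-05). Lrg1, a secreted leucine-rich glycoprotein, averaged 1372 ± 98.2 FPKM after doxorubicin, 497 ± 49.2 FPKM after cisplatin and 355 ± 86.3 FPKM after saline, and rose by 1.98 (adjusted p = 1.01e-07) and 0.52 (0.0266). A further list held 16 negative acute-phase proteins, known to fall in an acute phase, and other secreted hepatocyte proteins. Of these 16, 4 rose (Itih1, Ambp, Ahsg and Gc) and 3 fell (Rbp4, Serpina6 and Azgp1) after doxorubicin. The list thus did not fall as a whole. After cisplatin 0 passed the test, and Ahsg, the gene of fetuin-A, came nearest (log2 difference 0.40, 95% interval 0.12 to 0.68, adjusted p = 0.0633) with no overlap between the groups. The doxorubicin calls were 43.8% of the 16. Rbp4, the retinol carrier, averaged 2451 ± 130 FPKM after doxorubicin and 3351 ± 156 FPKM after saline and fell by 0.45 (adjusted p = 0.000256). Ambp, the precursor of α1-microglobulin and bikunin, averaged 3609 ± 264 FPKM after doxorubicin and 2318 ± 363 FPKM after saline and rose by 0.65 (adjusted p = 0.000386).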

How the data were processed

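Poly(A)-selected liver RNA was sequenced in 15 libraries, 5 per group. The deposited table holds FPKM per gene and library, which the authors made from reads trimmed with Trim Galore 0.4.1, aligned with HISAT2 2.0.1 to GRCm38 (mm10) and counted with featureCounts 1.4.6, with edgeR also named, per the submitters' processing notes. The annotation release and strand setting are not given in the sources used here. Reads assigned to genes were read back from the steps of low FPKM values and numbered 25.3 to 50.7 M (megareads) per library, which limits the precision of low genes. 0 columns of per-sample values were left unused. The column of 1 doxorubicin library carries a number that matches no label and was assigned to its group only.

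Genes that reached 1 FPKM in 5 or more libraries were kept. Log2(FPKM + 1), with a pseudocount of 1, was fitted over all 3 groups with limma 3.58.1 in R 4.3.3 (robust empirical Bayes with trend), and p-values were adjusted over 10552 genes by Benjamini and Hochberg, with a threshold of 0.05. Tests were two-sided. Fold changes on this scale understate changes of low genes. Values in every library are given for up to 3 called members per class, drug and direction with the smallest adjusted p, and for the fibrinogen chains, and up to 4 called genes per other list and direction are named. Some genes that this rule names are not reported here. C6 and a few more members are described for completeness, and C6 was chosen for full values after these were seen. The members and lists were chosen with earlier results of these data known. Alternatives changed the pseudocount, filter, scaling, groups fitted and variance model, added a replicate block, or left out libraries, and the fit without saline 2 and the unnumbered doxorubicin library was chosen after seeing the data.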

Additional observations from a re-analysis of the deposited data

Results flagged for a closer look

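Among 117 pairs of a member and a group of 5 livers, 10 held a library set far apart from the other 4 (gap to the nearest over the range above 0.71), where chance gives about 1 in 20 groups. In the unnumbered doxorubicin liver 5 members were low: C1ra at 78.5 FPKM (others 97.3 to 99.9), F2 at 714 FPKM (951 to 966), Fgb at 5062 FPKM (6755 to 7205), Fgg at 4004 FPKM (5067 to 5454) and Pros1 at 14.3 FPKM (19.1 to 20.5). In cisplatin 4, Hc stood high at 190 FPKM (158 to 167) and Cfi low at 259 FPKM (310 to 316). In cisplatin 2, Klkb1 stood low at 65.4 FPKM (73.0 to 75.1). In saline 4, F5 stood high at 71.4 FPKM (59.7 to 62.8), and in saline 2 Serpinc1 stood low at 1192 FPKM (1386 to 1422).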

How the results depend on the processing

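Over 26 alternatives, 19 of the 24 member calls after doxorubicin against saline, 3 of 5 after cisplatin and 10 of 17 between the drugs held in every one, and 0 reversed. Coagulation members lower after doxorubicin numbered 2 when saline 2 and the unnumbered doxorubicin library were both left out, and 1 to 3 when single libraries were left out. Coagulation members higher after cisplatin numbered 1 without a filter, as TPM, with median-ratio scaling and with quantile normalization, and 1 to 2 without single libraries, and complement members lower numbered 0 to 1. Between the drugs, complement members lower numbered 0 with median-ratio scaling or quantile normalization and 0 to 1 without single libraries, complement members higher 7 to 11, and coagulation members lower 2 with a mean of at least 5 FPKM or with only the 2 groups compared, and 1 to 3 without single libraries. Kng1 was lost there with quantile normalization (adjusted p = 0.182). Over all tested genes, cisplatin calls numbered 385 to 687 higher and 332 to 553 lower without single libraries, and 313 lower with a mean of at least 5 FPKM, where 583 genes were higher between the drugs. The cause of these shifts was not tested, except that the higher filter tests fewer genes.

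With the replicate number as a block, 11 complement members rose and 1 fell after doxorubicin against saline, and 6 coagulation members rose and 1 fell, with Masp2 (adjusted p = 0.0596), Serping1 (0.0888), C2 (0.0723), Cpb2 (0.0926) and Serpinf2 (0.128) no longer called. The unnumbered doxorubicin library was a block of its own in this fit and added nothing to the differences. The lost calls therefore cannot be put down to blocking alone. Over all tested genes, 1007 genes were higher and 1163 lower after doxorubicin against saline, 340 lower after cisplatin, and 561 higher and 699 lower between the drugs, where 6 complement members were higher and 0 lower. Deviations of same-numbered libraries correlated at -0.261 to 0.015 (doxorubicin and saline), -0.553 to 0.057 (cisplatin and saline) and -0.018 to 0.352 (doxorubicin and cisplatin), so the numbers were not taken to pair the livers.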
